A study of Mus musculus with 32 samples.

Results

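Auranofin, a gold compound that inhibits thioredoxin reductase, was given on its own to 3T3-L1 adipocytes, a mouse fibroblast line differentiated into fat cells in culture, and the transcript levels after 4 h are described here. The arrays titled as auranofin at 4 h (2 of them, 1 µM) were set against those titled as control at 4 h (2), and every gene that the array measures through a probe set with 1 symbol was tested, which gave 21506 genes. These are 4 of 32 microarrays in the study, which fall into 16 groups of 2. Cells received auranofin, BCNU (100 µM, an inhibitor of glutathione reductase), or both for 2, 4, 8 or 24 h. Untreated cells were sampled at 0 h and controls at 4, 8 and 24 h, with none labelled for 2 h. All cells were of the 1 line and were kept in Dulbecco's medium with foetal bovine serum, and what the control wells received beside medium is not given in the labels. The labels do not say whether the arrays of a group came from separate cultures, so every p-value measures the spread between these arrays, which may be technical, and 2 arrays a group limit the precision.

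Thioredoxin and glutathione are the small thiol carriers that keep peroxiredoxins and other proteins reduced, and each is recycled by a reductase that draws on NADPH. When reactive electrophiles or oxidants modify cysteines of KEAP1, the transcription factor NRF2 escapes degradation, pairs with a small MAF protein and switches on genes for glutathione synthesis, thioredoxin recycling, NADPH production and detoxification, in competition with the repressor BACH1 at the same sites. Unfolded protein engages a separate factor, HSF1, which drives chaperone genes, and shortage of amino acids or a blocked start of translation engages ATF4.

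Levels are the authors' log2 values, and a change is the auranofin mean minus the control mean on that scale, so that 1 unit is a 2-fold difference. It is given with its standard error, estimated by limma from all 32 arrays. A gene was called differentially-expressed where the Benjamini-Hochberg adjusted p over all 21506 genes was under 0.05 and the change was over 0.5 in either direction. By this rule 61 genes were called, 0.284% of those tested. Of these 52 were higher with auranofin (0.242%) and 9 lower (0.0418%), and the change exceeded 2-fold in 21 genes (19 higher, 2 lower). A further 7 genes passed on adjusted p alone with a smaller change. Both auranofin arrays lay outside the range of the control arrays for all 61 called genes, as they did for 36.1% of all genes tested. The median change over all genes was 0.01 and the median standard error 0.17.

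**Figure D1:**
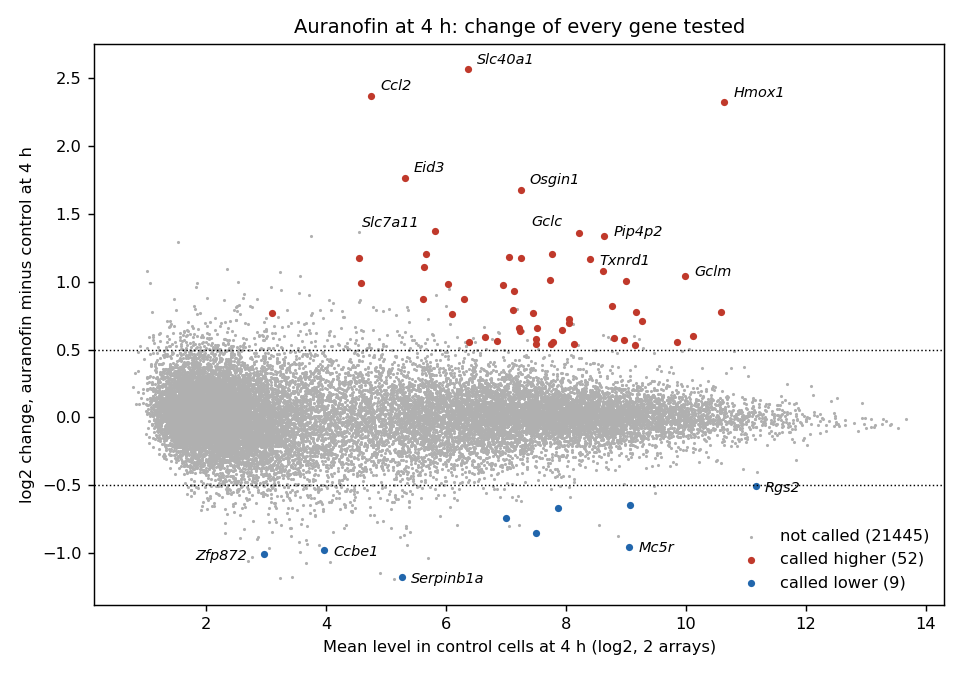
Each point is 1 of 21506 genes, with its mean level on the 2 control arrays at 4 h (log2) on the horizontal axis and the log2 change with auranofin on the vertical axis. The 52 genes called higher (red) reach 2.56, the 9 called lower (blue) reach -1.18, and the dotted lines mark changes of 0.5 in either direction.

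Adipocyte markers were high on every 4 h array. Over 13 adipocyte markers the median level on each array lay between 11.9 and 12.1, whereas that of 8 macrophage and leukocyte markers lay between 2.26 and 2.39, close to the background level of 2.30 (the highest lower quartile of any array). The median of 7 endothelial markers lay between 2.14 and 2.36, that of 7 muscle markers between 3.15 and 3.38, and that of 17 preadipocyte and fibroblast markers between 8.09 and 8.86. No member of these 5 marker lists was called at 4 h. A mixed culture is measured as a whole here, so fewer cells of a type and less RNA per cell cannot be told apart. The correlation between the 2 arrays of a group over all genes was 0.995 both for the 4 h controls and for auranofin at 4 h, and it lay between 0.993 and 0.995 in all 16 groups.

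The transcript of the drug's own target rose. Txnrd1, the cytosolic thioredoxin reductase, stood at 8.59 and 8.22 on the control arrays and at 9.56 and 9.58 on the auranofin arrays. Both treated arrays were above both controls, a change of 1.17 ± 0.11 (SE; 2.24-fold, adjusted p = 5.8e-06). The other reductases of the family were not called. The change was -0.05 for the mitochondrial Txnrd2 and 0.01 for Txnrd3, known mainly from testis, with 95% intervals of -0.28 to 0.17 and -0.21 to 0.23. The thioredoxin gene Txn1 (-0.01) and the peroxiredoxins Prdx2 (-0.03) and Prdx3 (0.02) were likewise not called. Gsr, the glutathione reductase that BCNU inhibits, had levels of 10.36 and 10.17 in control cells and 10.52 and 10.74 with auranofin. Its groups did not overlap, but the change of 0.37 did not pass (adjusted p = 0.246). Over the 16 measured genes of the thioredoxin and glutathione reductase list, 1 was called higher and none lower, with a median change of -0.01. Among 24 selenoproteins and genes of selenium handling, the class to which the thioredoxin reductases belong, Txnrd1 was again the 1 gene called (median 0.01).

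NRF2 targets had the most called members of all 39 lists. Of 26 measured members of that list, 14 were called higher and none lower, with a median change of 0.66 against 0.01 over all genes. The list had been drawn up with earlier results of these data known, so its count is a description. Hmox1, haem oxygenase-1, which breaks haem into iron, carbon monoxide and biliverdin, had the smallest adjusted p of all genes. It rose from 10.93 and 10.35 to 13.04 and 12.89, so that the treated arrays lay well above both controls (2.32 ± 0.16, 5-fold, adjusted p = 2.15e-07). Osgin1, an oxidative stress-induced growth inhibitor, was nearly the same on both control arrays (7.25 and 7.24) and reached 8.99 and 8.85 with auranofin (1.68 ± 0.13, adjusted p = 3.54e-07).

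Glutathione synthesis was represented at its rate-limiting steps. Gclc, the catalytic subunit of glutamate-cysteine ligase, rose from 8.15 and 8.27 to 9.55 and 9.59 (1.36 ± 0.10, 2.57-fold, adjusted p = 2.31e-07). Its modifier subunit Gclm rose from 10.10 and 9.88 to 11.00 and 11.06 (1.04 ± 0.10, adjusted p = 1.14e-05). For both subunits the 2 treated arrays agreed closely and were apart from the controls. Slc7a11, the light chain of the antiporter that imports cystine in exchange for glutamate, stood at 6.0 and 5.62 in controls and at 6.93 and 7.44 with auranofin, a wider spread in both groups (1.37 ± 0.26, adjusted p = 0.0177). It no longer passed when control replicate 2 (adjusted p = 0.252) or auranofin replicate 2 (0.345) was left out. The heavy chain partner Slc3a2 changed by 0.49 (adjusted p = 0.0621) and Gss, which completes glutathione, by 0.08, neither of which was called. The whole list of glutathione synthesis, cystine import and breakdown had 3 of 17 members higher and none lower, with a median of 0.21.

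The remaining NRF2 targets that were called act on peroxides, quinones, carbonyls and NADPH. Srxn1, sulfiredoxin, which restores overoxidised peroxiredoxins, rose from 7.32 and 6.77 to 8.23 on both treated arrays (1.18 ± 0.16, adjusted p = 0.000505), and was the 1 called gene among 15 peroxiredoxin, glutathione peroxidase and catalase genes (median 0.02). Nqo1, the NADPH-using quinone reductase, rose from 7.76 and 7.70 to 8.90 and 8.59 (1.02 ± 0.15, adjusted p = 0.0017), a call that was lost without auranofin replicate 1 (adjusted p = 0.0538). Aox1 (aldehyde oxidase) rose by 1.08 and Cbr3 (a carbonyl reductase) by 0.98, with adjusted p of 2.65e-06 and 0.00241. Pgd, the pentose phosphate enzyme that makes NADPH, rose by 0.60 ± 0.09 (adjusted p = 0.00109), and Nqo1 and Pgd were the 2 called of 12 genes for NADPH production and quinone reduction (median 0.04).

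Gsta3, a glutathione S-transferase, was low in control cells (4.74 and 4.35) and higher with auranofin (5.83 and 5.61), a change of 1.17 ± 0.22 (adjusted p = 0.0157). It no longer passed when control replicate 2 (adjusted p = 0.252) or auranofin replicate 1 (0.136) or 2 (0.0578) was left out, and close paralogs of this family may share its probes. The conjugate exporter Abcc1 rose by 0.71 ± 0.11 (adjusted p = 0.0016). They were the 2 called of 21 genes for glutathione transfer and drug export (median 0.14), in which Gstm1 and Gstp1 changed by 0.36 and 0.37 with adjusted p of 0.446 and 0.488. The 14th target called was Sqstm1 (p62), an autophagy receptor that also binds KEAP1, at 10.64 and 10.52 in controls and 11.27 and 11.45 with auranofin (0.78 ± 0.10, adjusted p = 0.000505).

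**Figure D2:**
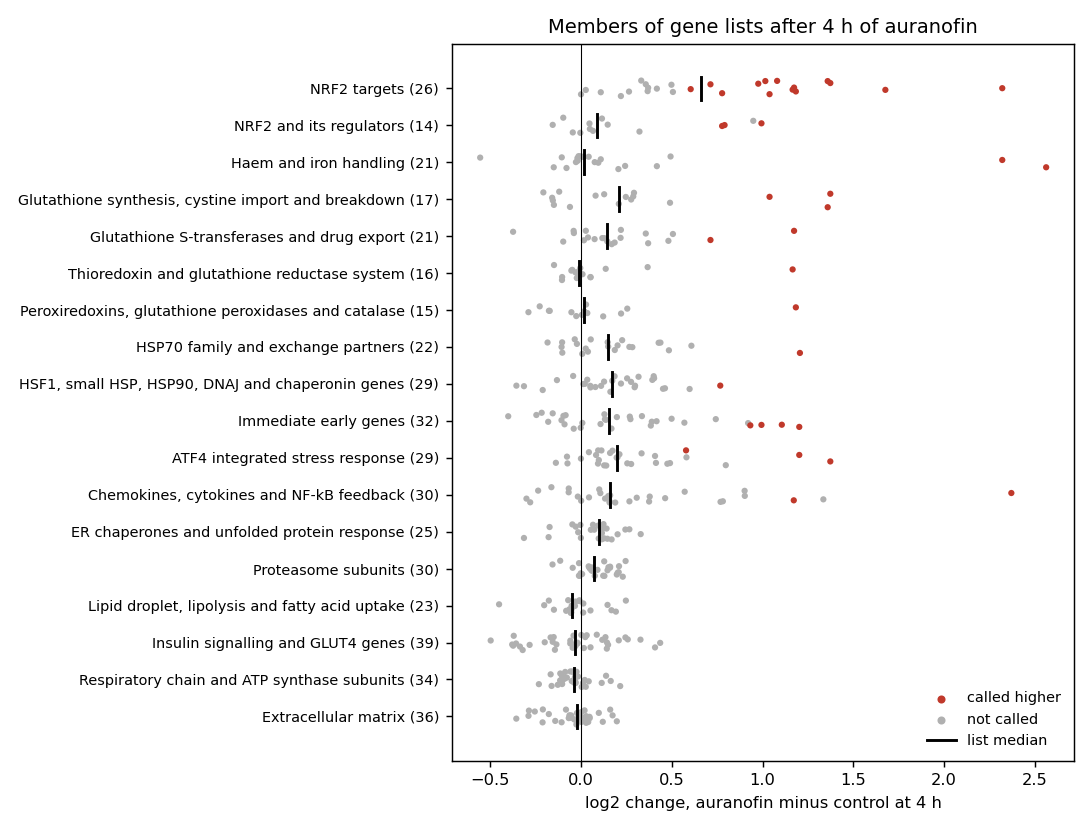
Each point is a gene of the list named on the left (number measured in brackets), placed by its log2 change with auranofin at 4 h; red points were called higher, grey points were not called and the black bar is the list median. The median of the NRF2 targets is 0.66 with 14 of 26 members called, while lists such as the respiratory chain and the extracellular matrix have medians near 0 and no member called.

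Among the genes that govern NRF2 itself, 3 of 14 were called higher and none lower (median 0.09). Maff, a small MAF partner of NRF2, rose from 4.58 and 4.59 to 5.54 and 5.61 (0.99 ± 0.21, adjusted p = 0.0373), and Bach1 from 7.2 and 7.05 to 7.91 and 7.92 (0.79 ± 0.12, adjusted p = 0.00139), with Sqstm1 as the third. The Maff call was lost without any 1 of the 4 arrays (adjusted p of 0.210 and 0.230 without control replicates 1 and 2, and 0.129 and 0.307 without auranofin replicates 1 and 2), while that of Bach1 was not. Mafg, another small MAF, went from 6.09 and 6.02 to 6.91 and 7.10, a change of 0.95 that narrowly missed the threshold (adjusted p = 0.0543). Transcripts of the sensor pair changed little: Nfe2l2, which encodes NRF2, by 0.15 (95% interval -0.01 to 0.30) and Keap1 by -0.10 (-0.33 to 0.14).

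The promoter sequences of the called genes were searched for the letters of the sites that these factors bind, in RefSeq windows (GRCm38.p6) from 250 bases before to 50 bases after each start, on both strands. Windows were given for 46 of the 61 called genes, of which 41 were called higher. The antioxidant response element core TGACNNNGC was found in 14 of these 41 genes (34.1%), against 14.9% of 16610 tested genes with a window and 12.4% of all 32851 windows. Counted by window, since 9 called genes have several, 29.1% of the 55 windows of genes called higher held it. Of the NRF2 targets, Gclm, Gsta3, Pgd, Srxn1 and Txnrd1 carried it, as did Maff. The called NRF2 targets Aox1, Cbr3, Osgin1, Slc7a11 and Sqstm1 had a window without it. The remaining carriers, Cdc42se1, Cebpb, Cry1, Dnajb1, Hsph1, Ppard, Simc1 and Tgif1, are not on the target list. Of 5 genes called lower with a window, 1 carried it (Lfng). Stretches of 4 genes, wholly before the start, are printed 5′ to 3′ in gene orientation with the core in capitals, because these genes belong to the NRF2 result. In Gclm and Txnrd1 the capitals show its reverse complement.
Gclm, chr3:122245398-122245456, plus strand: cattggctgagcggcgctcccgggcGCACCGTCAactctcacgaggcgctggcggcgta
Txnrd1, chr10:82859089-82859147, plus strand: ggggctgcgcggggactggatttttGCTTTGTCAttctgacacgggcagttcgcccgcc
Gsta3, chr1:21240439-21240497, plus strand: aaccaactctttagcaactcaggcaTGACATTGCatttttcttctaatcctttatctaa
Maff, chr15:79346484-79346542, plus strand: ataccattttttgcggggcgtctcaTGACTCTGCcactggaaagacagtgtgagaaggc
The first capital lies 134 bases before the start in Gclm, 92 in Txnrd1, 121 in Gsta3 and 112 in Maff. A match of letters is a description and not a bound site. The looser form TGANNNNGC, which every core match also fits, was found in 21 of the 41 genes (51.2%). Of all tested genes with a window, 45.5% held it.

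The largest rise of all was in iron export. Slc40a1 encodes ferroportin, the known iron exporter of vertebrate cells, and stood at 6.02 and 6.72 in controls against 8.81 and 9.05 with auranofin. The groups were more than 2 log2 units apart, a change of 2.56 ± 0.23 (5.91-fold, adjusted p = 2.65e-06). Together with Hmox1 it was 1 of 2 called among 21 genes of haem and iron handling, whose median was 0.01. Slc48a1, a haem transporter, rose from 10.80 and 10.79 to 11.2 and 11.37 (0.49 ± 0.10, adjusted p = 0.0344), just under the size threshold. Tfrc, the transferrin receptor for iron uptake, had levels of 9.38 and 9.58 in controls and 8.79 and 9.06 with auranofin (-0.56, adjusted p = 0.129), and the ferritin heavy chain Fth1 changed by 0.11. Neither of the last pair was called.

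A chemokine and a colony-stimulating factor rose as well. Ccl2, the monocyte chemoattractant, stood at 4.45 and 5.05 in controls and 7.19 and 7.05 with auranofin (2.37 ± 0.29, 5.18-fold, adjusted p = 0.000218). Csf1, which sustains macrophages, rose from 7.14 and 7.35 to 8.41 and 8.42 (1.17 ± 0.16, adjusted p = 0.000479). In both genes every treated array exceeded every control, and they were the 2 called of 30 chemokine, cytokine and NF-kB feedback genes (median 0.16). Of the 8 macrophage and leukocyte markers 4 were near background and none was called. Lyz2 (lysozyme; 4.67 and 4.75 in controls, 5.38 and 4.96 with auranofin, 0.46, adjusted p = 0.860) and Cd68 (4.43 and 4.31 against 4.42 and 4.82) were above it, and their part in the rise of Ccl2 and Csf1 was not tested. Other members of the list varied more between arrays: Ptgs2, the inducible cyclooxygenase, had levels of 3.05 and 4.46 in controls and 4.85 and 5.33 with auranofin (1.34, adjusted p = 0.224), and Ccl7 changed by 0.90 (adjusted p = 0.144). Il6, Tnf and Icam1 changed by 0.16, 0.13 and -0.00. None of 22 interferon-stimulated genes was called, although their median was 0.23. Kitl, stem cell factor, was a further secreted factor called higher (0.66 ± 0.13, adjusted p = 0.0295), a call lost without control replicate 1 or either auranofin replicate, with adjusted p of up to 0.347.

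**Figure D3:**
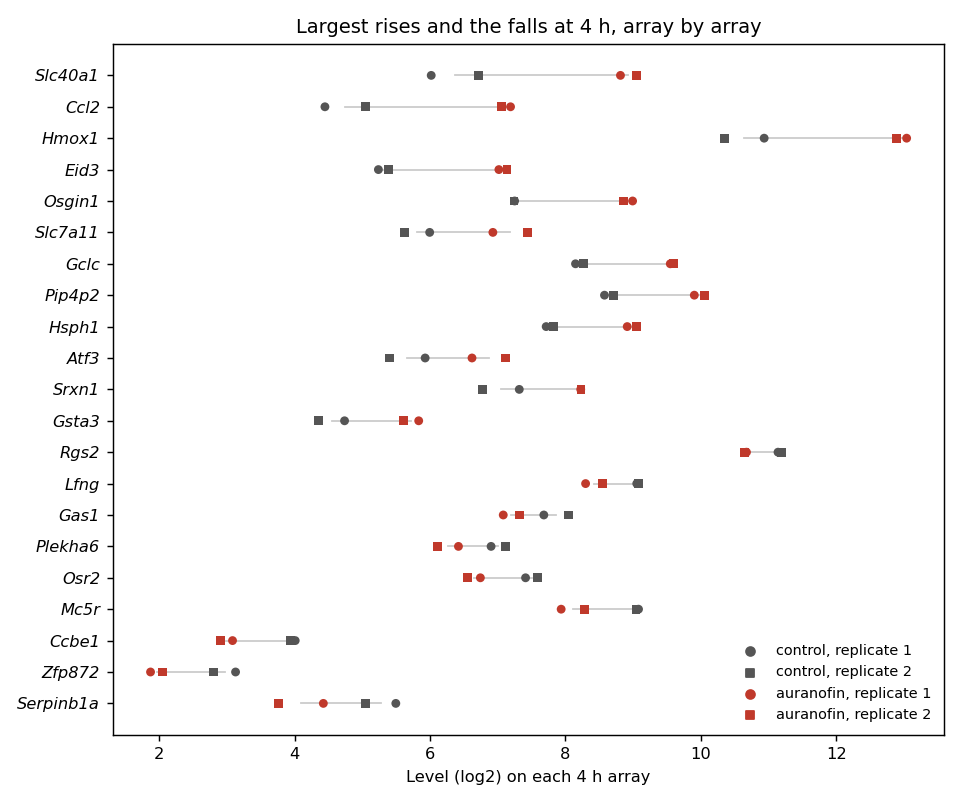
Level (log2) of the 12 genes with the largest called rises and of the 9 genes called lower on each of the 4 arrays at 4 h, with circles for replicate 1, squares for replicate 2, grey for control and red for auranofin; the grey line joins the group means. In every gene both red points lie to 1 side of both grey points, and Slc40a1, Ccl2 and Hmox1 lie farthest apart.

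Few chaperone genes were called. Hsph1, the HSP110 protein that renews the nucleotide on HSP70, rose from 7.72 and 7.83 to 8.91 and 9.04 (1.21 ± 0.15, adjusted p = 0.000154), and was the 1 called of 22 HSP70 family and partner genes (median 0.15). Dnajb1, an HSP40 that feeds client proteins to HSP70, rose from 7.44 and 7.46 to 8.28 and 8.15 (0.77 ± 0.11, adjusted p = 0.00139). It was the 1 called of 29 genes for HSF1, small HSPs, HSP90, DNAJ proteins and chaperonins (median 0.17). At an unadjusted p under 0.05, 7 members of the HSP70 list were higher and 0 lower. In the list of 29, 11 were higher and 2 lower. Over all 21506 genes, 1489 reached that p in either direction. At 8 h, 4 and 8 members of these lists were called higher and 0 lower, beside 0.916% of all genes called higher. Several inducible members came close at 4 h without passing. Hspa1b went from 8.46 and 8.78 to 9.17 and 9.29 (0.61, adjusted p = 0.0621), Hspb8 changed by 0.60 (0.0621), Hsp90aa1 by 0.46 (0.0931) and Bag3 by 0.44 (0.0931). Hspa1a, a near-identical copy of Hspa1b whose probes may share its transcripts, was near background (0.19). No metallothionein or gene of zinc and copper handling was called among 21, with Mt2 at 0.30 (adjusted p = 0.827), and Mt1 has no value of its own among the genes tested. No proteasome subunit (of 30), ER chaperone or unfolded protein response gene (of 25) or p53 target (of 22) was called either, with medians of 0.07, 0.10 and -0.05.

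Stress-responsive transcription factors formed another set. Atf3, a factor of the ATF/CREB family, stood at 5.93 and 5.40 in controls and 6.62 and 7.12 with auranofin (1.2 ± 0.23, adjusted p = 0.0243), and lost its call without control replicate 2 (adjusted p = 0.360) or auranofin replicate 2 (0.422). Egr1 rose from 5.38 and 5.88 to 6.80 and 6.67 (1.11 ± 0.18, adjusted p = 0.00445), a call lost without control replicate 1 (0.139) or auranofin replicate 1 (0.0681). Myc rose from 6.97 and 7.30 to 7.96 and 8.18 (0.93 ± 0.16, adjusted p = 0.00805), a call lost without control replicate 1 (0.165) or auranofin replicate 2 (0.166). In each of the 3 genes the groups were apart. With Maff they were the 4 called of 32 immediate early genes (median 0.15). Jun and Fos, the founding members of that class, changed by -0.04 and -0.18 (95% intervals -0.37 to 0.29 and -0.51 to 0.14) and were not called, nor was any of 22 ERK and MAPK phosphatase and Sprouty genes (median 0.22).

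The ATF4 list had 3 of 29 members called higher (Slc7a11, Atf3 and Cebpb) and a median of 0.20. Cebpb rose from 7.38 and 7.63 to 7.97 and 8.2 (0.58 ± 0.12, adjusted p = 0.043), and lost its call without any 1 of the 4 arrays (adjusted p of 0.424 and 0.0595 without control replicates 1 and 2, and 0.0538 and 0.521 without auranofin replicates 1 and 2). Ddit3, Trib3, Chac1 and Asns, further ATF4 targets, changed by 0.58, 0.41, 0.13 and 0.11 and were not called, and none of 18 cytosolic tRNA synthetases was (median 0.08). The composite site of C/EBP and ATF factors, TGATGNAA, was found in 3 of the 41 genes called higher (7.32%). These were Atf3, Slc7a11 and Tmtc4. Of all tested genes with a window, 3.88% held it. The Slc7a11 window is shown because it holds the site as an inverted pair, with both copies in capitals, and the Atf3 window beside it has the reverse complement.
Slc7a11, chr3:50443628-50443704, minus strand: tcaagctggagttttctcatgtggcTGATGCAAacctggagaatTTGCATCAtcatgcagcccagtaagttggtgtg
Atf3, chr1:191183411-191183468, minus strand: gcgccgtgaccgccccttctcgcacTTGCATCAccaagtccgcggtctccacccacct
The first capital lies 66 bases before the start in Slc7a11 and 110 in Atf3. Facing heat shock units, GAANNTTC or TTCNNGAA, were found in 4 of the 41 genes (9.76%), a smaller share than the 15.7% of all tested genes with a window. The chaperone gene Dnajb1 had a window without such a unit. Hsph1 had it, and both genes also carried the antioxidant response element core. The Hsph1 unit is printed for the chaperone result above.
Hsph1, chr5:149636337-149636394, minus strand: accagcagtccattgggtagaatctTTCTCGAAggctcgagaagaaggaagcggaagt
The AP-1 letters TGANTCA were found in 4 of the 41 genes (9.76%, against 8.44% of all tested genes with a window). In the same form, the E-box CACGTG was found in 4 (9.76% against 9.18%) and the cAMP response element TGACGTCA in 1 (2.44% against 2.65%). A loose pattern for NF-kB was found in 29 (70.7% against 60.2%).

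Of the 61 called genes, 33 belonged to none of the pathway lists. Some of the genes in these last paragraphs, Mir1938 among them, are named beyond the rule for named genes. They were added after their values were seen, so that every called gene is accounted for. Eid3, a subunit of the SMC5/6 complex also known as an inhibitor of EP300, rose from 5.24 and 5.38 to 7.02 and 7.14 (1.77 ± 0.20, adjusted p = 5.08e-05), and Pip4p2, a phosphoinositide phosphatase, from 8.58 and 8.71 to 9.90 and 10.05 (1.33 ± 0.12, adjusted p = 2.91e-06). Both rank among the 8 largest rises and neither belongs to a list. Ifrd1, a transcriptional coregulator, rose by 1.01 ± 0.10 (adjusted p = 5.8e-06). The corepressor Lcor rose by 0.82, the TGF-beta repressor Tgif1 by 0.87, the clock repressor Cry1 by 0.55, the lysosome and autophagy factor Tfe3 by 0.55 and the nuclear receptor Ppard by 0.57. Tgif1 was the 1 called of 36 TGF-beta and BMP genes (median -0.09), Cry1 of 17 clock genes (0.10), and Tfe3 with Sqstm1 the 2 of 30 autophagy genes (0.07). With the untreated 0 h cells as control the change in Cry1 was 0.32 and did not pass (adjusted p = 0.140). Of the same 8 genes, Tgif1, Tfe3 and Ppard lost their calls when single arrays were left out: Tfe3 and Ppard without any 1 of the 4 (adjusted p of up to 0.182 and 0.270) and Tgif1 without control replicate 2 or either auranofin replicate (up to 0.352).

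Cpeb4, which binds cytoplasmic polyadenylation elements in mRNA, rose by 0.78 ± 0.10 and kept its call without any 1 array. Mocs1, of molybdenum cofactor synthesis (the cofactor that aldehyde oxidase uses), rose by 0.56 and lost its call without control replicate 1 (adjusted p = 0.0811). The F-box proteins Fbxo30 and Fbxo21 rose by 0.76 and 0.66, the ubiquitin ligase Trim35 by 0.59, the kinase-like Stk40 by 0.70 and the volume-regulated anion channel subunit Lrrc8e by 0.77. The mannosyltransferase Tmtc4 rose by 0.72, the Golgi mannosidase Man2a1 by 0.54, the arginine methyltransferase Prmt3 by 0.64 and Cdc42se1, a CDC42 effector, by 0.54. Zinc-finger and chromatin genes made up the rest: Zfp418 (0.99), Zfp655 (0.64), Zcchc2 (0.56), Jade3 (0.58), Kansl2 (0.54) and Simc1 (0.54), with the microRNA gene Mir1938 at 0.88. Apart from Cpeb4, each of these genes lost its call in 1 or more omissions (adjusted p of up to 0.484). Zfp418, Zcchc2, Jade3, Kansl2, Simc1, Prmt3 and Man2a1 lost it without any 1 of the 4 arrays, Mir1938 without control replicate 2, and Lrrc8e, Stk40 and Zfp655 without replicate 2 of either group. Fbxo30 lost it without replicate 1 of either group, Trim35 without control replicate 1 or auranofin replicate 2, Fbxo21 without all but auranofin replicate 2, and Cdc42se1 and Tmtc4 without all but control replicate 1. Over all 61 genes, 36 were still called without control replicate 1, 32 without control replicate 2, 35 without auranofin replicate 1 and 32 without auranofin replicate 2, and 24 genes under all 4 omissions. Of the 14 NRF2 targets, at least 12 were still called under each omission.

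Of the 9 genes called lower, Mc5r was the 1 that kept its call without any single array. It encodes a melanocortin receptor through which adipocytes respond to ACTH and MSH peptides, and it fell from 9.08 and 9.04 to 7.94 and 8.28 (-0.95 ± 0.12, 0.52-fold, adjusted p = 0.00028). Serpinb1a, an inhibitor of neutrophil serine proteases, had the largest fall (-1.18 ± 0.24, adjusted p = 0.0379), from 5.50 and 5.05 to 4.43 and 3.76. Its groups did not overlap but the arrays of each differed widely, and the call was lost without control replicates 1 (0.389) or 2 (0.0648) or auranofin replicate 2 (0.558). Ccbe1, a matrix protein of lymphatic growth, fell from 4.01 and 3.94 to 3.08 and 2.90 (-0.98, adjusted p = 0.00712). Zfp872 had levels of 3.13 and 2.81 in controls and 1.87 and 2.05 with auranofin (-1.01, adjusted p = 0.00967), so that the treated arrays were at background. In the untreated cells and the controls of 8 and 24 h this gene lay between 2.32 and 2.62, below the 4 h controls. Its call was lost with the untreated 0 h cells, or the mean of all controls, as control.

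The transcription factor Osr2 fell by 0.85, Plekha6 by 0.74, the Hedgehog co-receptor Gas1 by 0.67, Lfng, a glycosyltransferase that modifies Notch, by 0.65 and Rgs2, which turns off G-protein signals, by 0.51. Rgs2 was high on all arrays (11.14 and 11.2 in controls, 10.67 and 10.65 with auranofin). Their adjusted p lay between 0.0166 and 0.0461. Osr2, Plekha6 and Rgs2 lost their calls without any 1 of the 4 arrays, Ccbe1 without each but auranofin replicate 1, Gas1 without each but control replicate 1, Lfng without each but auranofin replicate 2 and Zfp872 without replicate 1 of either group (adjusted p of up to 0.511 among these 7 genes). With the untreated 0 h cells as control, 7 of the 9 falls no longer passed (adjusted p from 0.0560 for Serpinb1a and Lfng to 0.561 for Zfp872), and Mc5r and Rgs2 did.

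Genes of adipocyte function were measured at high levels and were not called. Fabp4, the fatty acid binding protein, stood at 13.17 and 13.09 in controls and 13.12 and 13.00 with auranofin (-0.07, 95% interval -0.25 to 0.11), and Adipoq, adiponectin, at 11.52 and 11.60 against 11.58 and 11.67 (0.06). The groups overlapped for both genes. The master regulator Pparg changed by -0.12, and of 23 adipogenic transcription factors Cebpb was the 1 called (median -0.02). None was called of 17 adipokines (median -0.04), 23 genes of lipid droplets, lipolysis and fatty acid uptake (-0.05), 22 of fatty acid and triglyceride synthesis (0.02) or 18 of mevalonate and cholesterol synthesis (0.05). Gata3, Ets2 and Runx1, further transcription factors, changed by 0.19, 0.39 and -0.18. Of 39 insulin signalling and GLUT4 genes none was called and the median was -0.03, with Slc2a4 (GLUT4) at -0.14, Irs1 at -0.37 and Pik3r1, the regulatory subunit of PI3-kinase with the smallest adjusted p of the list (0.229), at -0.32. At an unadjusted p under 0.05, 7 of the 39 were lower and 1 higher, beside 1489 of all 21506 genes in either direction. Nor was any of 27 hypoxia and glycolysis genes (-0.05), 34 respiratory chain and ATP synthase subunits (-0.04), 36 extracellular matrix genes (-0.02) or 30 cell cycle genes (-0.15).

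In each list without a call, the member with the smallest adjusted p stayed above the threshold. Closest were Plk2 of the p53 targets, a polo-like kinase (0.62, adjusted p = 0.0582), Spred2, a brake on ERK signalling (0.50, adjusted p = 0.0621), and the cell cycle inhibitor Cdkn2b (0.46, adjusted p = 0.166). For the adipocyte and metabolic lists these were Angptl4, a secreted lipase inhibitor (-0.26), Pde3b, the phosphodiesterase by which insulin restrains lipolysis (-0.20), Lpin2, a phosphatidate phosphatase (0.61), Insig1, a brake on sterol synthesis (0.23), the glucose transporter Slc2a1 (0.33) and Cox5a of cytochrome oxidase (0.22), with adjusted p between 0.446 and 0.843. For the others they were the tRNA synthetase Nars (0.30), the ER co-chaperone Dnajb9 (-0.32), the proteasome subunit Psmd1 (0.21), the interferon-stimulated kinase Cmpk2 (0.60) and Lox, a collagen cross-linking enzyme (-0.29), with adjusted p between 0.423 and 0.693. In the marker lists they were Cebpa (-0.28), Twist1 (-0.18), Vwf (0.08), Tnnt3 (0.33) and Lyz2, with adjusted p of at least 0.502.

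The same drug was also sampled at other times, with other arrays. At 8 h 308 genes were called (1.43% of those tested, 0.916% higher and 0.516% lower), at 24 h 275 (1.28%, 0.921% higher and 0.358% lower), and at 2 h, against the untreated cells of 0 h, 15 (0.0697%). Of the 61 genes of 4 h, 43 were called in the same direction at 8 h (70.5% of the 61 and 14.0% of the 308; 38 higher and 5 lower), 24 at 24 h (39.3% and 8.73%) and 12 at 2 h (19.7% and 80%). None was called in the opposite direction. The 52 genes called higher at 4 h had a median change of 0.81 there, 0.45 at 2 h, 0.87 at 8 h and 0.50 at 24 h. They were above 0 in 51, 52 and 48 cases at the other 3 times, beside 50.5%, 48.7% and 49.3% of all genes. The 9 called lower had medians of -0.38 at 2 h, -0.85 at 4 h, -0.53 at 8 h and -0.22 at 24 h. Both sets were chosen by their values at 4 h, so their 4 h medians may be overstated beside those of the other times.

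A test of the difference in the auranofin effect between 4 and 8 h called 1 gene (0.00465% of those tested). Nqo1 had risen by 1.02 at 4 h and by 2.56 at 8 h, when its levels were 7.63 and 7.70 in controls and 10.14 and 10.30 with auranofin. The difference was -1.54 ± 0.21 (adjusted p = 0.0146), and it lost its call in 6 of 8 omissions of a single array (adjusted p of up to 0.199), all but those of replicate 1 of auranofin at 4 h or at 8 h. Between 4 and 24 h, 29 genes differed (0.135%), with 9 effects higher at 4 h (0.0418%) and 20 lower (0.093%). Nqo1 (1.02 against 2.74), Gsta3 (1.17 against 2.95) and Hspa1b (0.61 against 2.15) were larger at 24 h, with differences of -1.73 ± 0.21, -1.78 ± 0.31 and -1.54 ± 0.19 (adjusted p of 0.000906, 0.0205 and 0.000906). Osgin1 was larger at 4 h (1.68 against 0.54, difference 1.14 ± 0.18, adjusted p = 0.0122), as was Ifrd1 (1.01 against 0.32, adjusted p = 0.0466) and the microRNA gene Mir1938 (0.88 against -0.23, adjusted p = 0.0271). The differences of Nqo1 and Hspa1b from 24 h kept their calls in all 8 omissions. That of Osgin1 passed only when replicate 2 of the 4 h auranofin, 24 h control or 24 h auranofin arrays was the one left out (adjusted p of up to 0.0861 otherwise), and that of Gsta3 only for control replicate 2 or auranofin replicate 1 of 4 h or auranofin replicate 2 of 24 h (up to 0.110). Those of Ifrd1 and Mir1938 were lost in 7 of 8 omissions, all but auranofin replicate 1 at 4 h and auranofin replicate 2 at 24 h respectively (up to 0.210 and 0.162).

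Other genes followed their own course without a difference that passed. Hmox1 was high from the first sample on (2.45 at 2 h, 2.32 at 4 h, 2.98 at 8 h and 2.47 at 24 h). Egr1 had its highest value at 2 h (1.79) and stood at 0.23 at 8 h, against 1.11 at 4 h (adjusted p of the difference between 4 and 8 h = 0.695). Gclm went from 0.40 at 2 h through 1.04 at 4 h to 1.63 at 8 and 24 h (adjusted p of the difference between 4 and 8 h = 0.647). Mc5r lay between -0.57 and -0.95 at all 4 times.

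**Figure D4:**
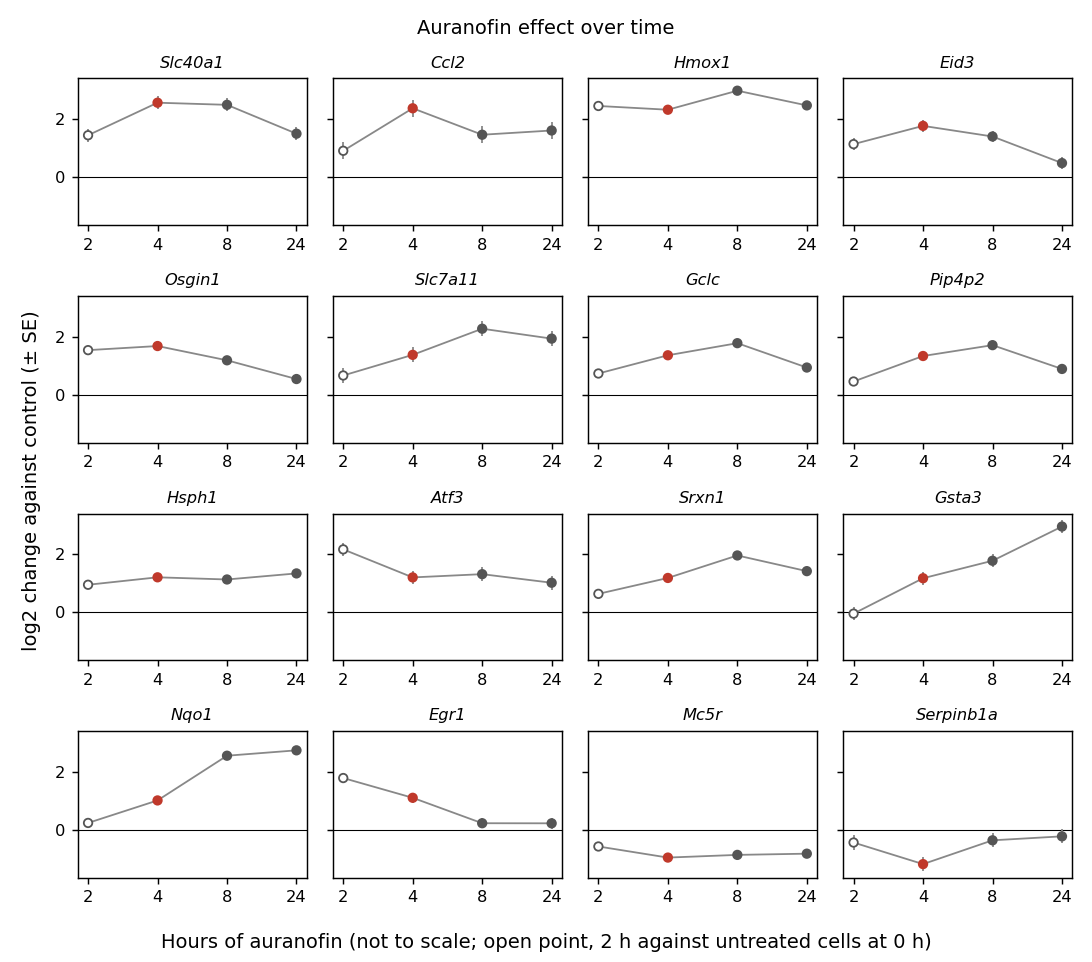
log2 change with auranofin ± SE at 2, 4, 8 and 24 h for the 12 largest rises at 4 h and for Nqo1, Egr1, Mc5r and Serpinb1a, each time against the 2 control arrays of that time (2 h against untreated cells, open points), with 4 h in red. Nqo1 goes from 1.02 at 4 h to 2.74 at 24 h and Gsta3 from 1.17 to 2.95, while Osgin1 goes from 1.68 to 0.54.

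BCNU, a nitrosourea with no gold, blocks the other thiol recycling system. At 4 h and at their own doses the compounds were compared directly, array against array, so that the controls do not enter. Of all genes, 68 differed (0.316%), of which 46 were higher with auranofin (0.214%) and 22 lower (0.102%), a split that moved to 32 and 27 with each array centred on its median. Among the 61 genes called for auranofin at 4 h, 5 were higher with auranofin than with BCNU and 2 lower. The 95% interval of the difference held 0 for 36 of the 61. The auranofin arrays are part of both comparisons. Outside the 61, the alpha-tubulin Tuba1a stood at 7.17 on both auranofin arrays, within the controls (7.04 and 7.32), and at 5.92 and 5.95 with BCNU, so that its difference of 1.24 (adjusted p = 0.00157) went with a change of -1.24 under BCNU. The beta-tubulin Tubb2a differed by 1.16 (adjusted p = 0.0422), with 0.57 under auranofin and -0.59 under BCNU against control, neither of them called. The taste receptor Tas2r143 was lower than with BCNU by a difference of -1.64 (adjusted p = 0.0167), beside -0.04 under auranofin and 1.59 under BCNU against control. The matricellular Ccn1 (-1.52, adjusted p = 1.64e-06) and the early genes Egr2 (-0.98, adjusted p = 0.0333) and Fos (-0.76, adjusted p = 0.0363) were also lower than with BCNU. Tuba1a and Ccn1 kept their calls without any 1 array, Tas2r143 lost it in all omissions but that of BCNU replicate 1 (adjusted p of up to 0.141), and Tubb2a, Egr2 and Fos lost it in all 4 (up to 0.296, 0.238 and 0.299). Tubb2a also lost its call with each array centred on its median and after cyclic loess scaling between arrays.

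Ccl2 differed most, at 5.13 and 4.68 with BCNU against 7.19 and 7.05 with auranofin (2.22 ± 0.29, adjusted p = 0.00177), and its BCNU levels overlapped those of the controls. Csf1 (7.42 and 7.5 with BCNU, difference 0.96, adjusted p = 0.00995) and the ligase Trim35 (6.69 and 6.78, 0.51, adjusted p = 0.0255) were likewise not called for BCNU against control (0.21 and 0.08). Slc40a1 and Gclc rose with both compounds (by 1.41 and 0.73 with BCNU), but less with BCNU, to 7.68 and 7.87 and to 8.87 and 9.0. The differences were 1.15 ± 0.23 (adjusted p = 0.0315) and 0.63 ± 0.10 (adjusted p = 0.00793). Mc5r was lower with auranofin than with BCNU (8.84 and 8.64 there, difference -0.63, adjusted p = 0.0232), as was Zfp872 (2.74 and 2.96 with BCNU, -0.89, adjusted p = 0.032). Of these 7 differences, that of Ccl2 kept its call without any 1 array, Gclc lost it without auranofin replicate 2 or BCNU replicate 1 (adjusted p of up to 0.0937), Csf1 lost it in all omissions but that of BCNU replicate 2 (up to 0.0880), Mc5r in all but that of auranofin replicate 2 (up to 0.223), and Slc40a1, Trim35 and Zfp872 in all 4 (up to 0.262). Trim35 also lost its call with each array centred on its median and after cyclic loess.

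Of the 14 called NRF2 targets, Gclc alone passed the direct test against BCNU. The 95% interval of the difference lay above 0 for Gclm (0.05 to 0.48), Nqo1 (0.07 to 0.71), Aox1 (0.04 to 0.44) and Abcc1 (0.13 to 0.57), none of which passed over all genes (adjusted p of 0.376, 0.360, 0.382 and 0.201). It held 0 for the other 9, from -0.21 to 0.48 for Hmox1, -0.37 to 0.17 for Osgin1, -0.11 to 0.35 for Txnrd1, -0.17 to 0.50 for Srxn1, -0.40 to 0.23 for Cbr3, -0.08 to 0.35 for Sqstm1 and -0.06 to 0.30 for Pgd. The intervals of Slc7a11 (-0.00 to 1.08) and Gsta3 (-0.24 to 0.66) were wider. Hsph1 and Dnajb1 were lower with auranofin than with BCNU by 0.50 and 0.37, intervals that excluded 0, although neither passed over all genes (adjusted p of 0.177 and 0.205). Both compounds together at 4 h were set against the same controls, and values for auranofin alone follow in brackets. The change was 2.29 for Hmox1 (2.32), 0.91 for Txnrd1 (1.17), 3.27 for Osgin1 (1.68), 3.13 for Atf3 (1.2) and 4.62 for Egr1 (1.11). For Ccl2 it was -0.47 (2.37), which was not called with both compounds (adjusted p = 0.392). The difference between both compounds and auranofin alone was not tested.

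**Figure D5:**
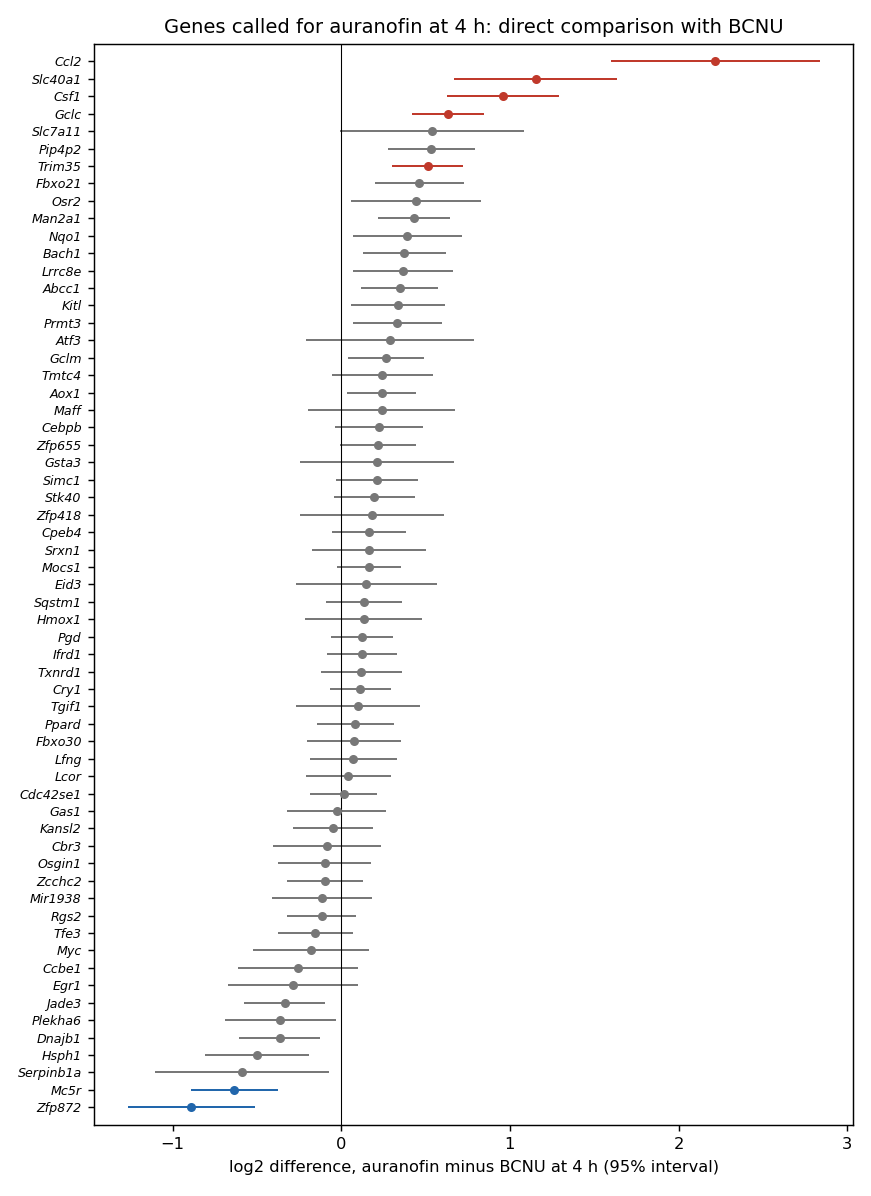
Difference in level (log2) between auranofin and BCNU at 4 h, with its 95% interval, for each of the 61 genes called for auranofin against control. The 5 genes in red (Ccl2, Slc40a1, Csf1, Gclc and Trim35) were higher with auranofin and the 2 in blue (Mc5r and Zfp872) lower by the direct test, and grey intervals did not pass it.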

How the data were processed

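The authors hybridised RNA from the cells to Affymetrix MoGene-2_1-st arrays (the study's methods also call the array Mouse Gene 2.0), made log2 values from the scans by RMA (background correction, quantile normalisation across arrays and median polish, in the oligo package) and deposited those log2 values for 25293 probe sets, after leaving out transcripts without an approved symbol. RMA shrinks differences at low levels, so changes near background may be understated. Of the probe sets, 22030 had 1 gene symbol, 685 several and 2578 none in the platform annotation used here, and 21930 matched a RefSeq gene by Entrez identifier. The median was taken over probe sets of a gene (465 genes), which left 21506 genes. Array medians lay between 3.55 and 3.69.

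A mean per group was fitted to all 32 arrays with limma 3.58.1 in R 4.3.3 (16 residual degrees of freedom, two-sided moderated test, Benjamini-Hochberg over all genes), with contrasts for auranofin against control, auranofin against BCNU, and the difference between times. Different times share no array. The untreated 0 h cells stood in for a 2 h control, an assumption that the labels do not settle. In simulated arrays each gene had 1 mean over all groups and independent normal noise with its own spread from these arrays. Changes of 0.75, 1, 1.5 and 2 log2 units were recovered in 27, 36, 47 and 50 of 50 genes, with 7 false calls. Effects shared by the genes of an array were not simulated, so these counts do not give the error rate in the real data.

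By rule the text names the 12 largest rises and falls among called genes (those with locus-style symbols counted only), the 3 largest in each direction of each difference test, up to 4 called members of each of 39 gene lists (or the member with the smallest adjusted p) and a fixed set of redox, heat shock and adipocyte genes. Other genes, Mir1938 among them, are named beyond this rule. The members and the lists were chosen with earlier results of these data known. Alternatives were other scalings, filters, probe set rules, controls and variance settings, a replicate block and omission of each array.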

Additional observations from a re-analysis of the deposited data

Results flagged for a closer look

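The auranofin effect at 4 h differed from that at 8 h, by a test of the difference itself, in Nqo1 (-1.54). It differed from that at 24 h in the following named genes, each given as the effect at 4 h minus that at 24 h on the log2 scale.

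The difference was below 0 for P2rx7, an ATP-gated ion channel (-2.72), Rgs4, a regulator of G-protein signalling (-1.84), Gsta3 (-1.78) and Nqo1 (-1.73). It was also below 0 for Hspa1b (-1.54) and Ccn1, a matricellular protein (-1.15). P2rx7 and Rgs4 changed by -0.29 and -0.88 at 4 h, neither called, and by 2.43 and 0.97 at 24 h. The difference was above 0 for Rtp4, an interferon-stimulated receptor transporter (3.07), and Nr4a1, an orphan nuclear receptor (1.24). So it was for Lum, the matrix proteoglycan lumican (1.23), and Osgin1 (1.14). For Rtp4, Nr4a1 and Lum the change was -2.38, -0.74 and -1.29 at 24 h beside 0.69, 0.50 and -0.06 at 4 h, where none was called. The differences of P2rx7 and Ccn1, like those of Nqo1 and Hspa1b at 24 h, kept their calls when any single array was left out, and those of Rtp4 and Nr4a1 lost them in all 8 such omissions (adjusted p of up to 0.155 and 0.175). Rgs4 lost its call in 5 of the 8 (up to 0.109) and Lum in 4 (up to 0.121).

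Outside the genes tested, 2 of the 685 probe sets with several symbols were called at 4 h (0.292%), both higher with auranofin, by up to 1.51. They were not named because their signal cannot be given to 1 gene.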

How the results depend on the processing

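With 2 arrays a group, the precision of each change is set by the spread borrowed from the other 28 arrays. Fitted to the 4 arrays at 4 h alone (2 residual degrees of freedom), the comparison called 0 genes, 0 higher and 0 lower, with a smallest adjusted p of 0.151 and 1348 genes at an unadjusted p under 0.05. No called gene changed direction under any alternative.

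Against 61 genes in the report, the number called was 61 with each array centred on its median, 62 after cyclic loess, 80 among genes above the median level (66 higher, 14 lower), 60 with the brightest probe set of each gene, 63 with probe sets of several symbols kept, 77 with a trended and robust variance prior, and 21 with a size threshold of 1 (19 and 2). The untreated 0 h arrays as control gave 87, with 14 of the 61 lost (Serpinb1a, Zfp872, Ccbe1, Osr2, Plekha6, Gas1 and Lfng among the falls, and Gsta3, Maff, Cebpb, Cry1, Kitl, Cdc42se1 and Mocs1 among the rises, the last 2 on size alone), and the mean of all controls 113 (91 and 22), with Cdc42se1, Cebpb, Mocs1 and Zfp872 lost. Single calls were also lost under the other settings: Kansl2 with median centring and with the brightest probe set, Simc1 after cyclic loess and Lrrc8e with the trended prior. With the replicate block described next, Simc1 and Plekha6 were lost. Omitting 1 array gave 37 to 48 genes, 32 to 45 higher and 3 to 9 lower. Replicate numbers did not pair samples: same-numbered deviations of auranofin and control at 4 h correlated at 0.03 and no pair of groups over 0.1, and a replicate block gave 62 genes, 59 of them among the 61.

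The difference between 4 and 8 h called 4 genes with the trended prior (1 higher, 3 lower), 0 on its own arrays (0 lower) and 0 to 3 on omission of 1 array (all lower). That between 4 and 24 h called 81 genes above the median level (33 and 48), 90 with the trended prior (35 and 55), 20 over a size of 1 (5 and 15), 3 on its own arrays (2 and 1) and 6 to 26 on omission (0 to 9 higher, 6 to 17 lower). Auranofin against BCNU called 122 genes above the median level (89 and 33), 105 with the trended prior (69 and 36), 12 over a size of 1 (9 and 3), 0 on its own arrays (0 and 0) and 7 to 35 on omission (5 to 27 higher, 2 to 11 lower). It called 59 genes with each array centred on its median (32 and 27) and 63 after cyclic loess (38 and 25). Of the 68 genes, 53 and 59 were still called under these 2 scalings.

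Direction changed only in genes that were not called at 4 h. With the untreated 0 h arrays as control the change was 0.011 for Lox, -0.0133 for Lyz2, 0.0956 for Txn1, -0.0814 for Gss, -0.00434 for Hspa1a, 0.0523 for Jun, 0.0665 for Fos, -0.0875 for Gata3, 0.13 for Runx1, -0.060 for Adipoq, 0.0819 for Tas2r143 and -0.56 for Rtp4. With the mean of all controls it was -0.021 for Txnrd3, 0.0855 for Txn1, -0.0442 for Gss, 0.0705 for Jun, 0.00491 for Runx1, 0.0632 for Lum and 0.0295 for Tas2r143, and after cyclic loess -0.0099 for Txnrd3 and -0.000201 for Prdx3. On omission of 1 array the change ran from -0.14 to 0.0299 for Txnrd2, -0.022 to 0.0367 for Txnrd3, -0.10 to 0.081 for Txn1, -0.090 to 0.0357 for Prdx2, -0.0615 to 0.10 for Prdx3, -0.11 to 0.27 for Gss, -0.12 to 0.0338 for Jun, -0.17 to 0.0481 for Lum, -0.15 to 0.13 for Tuba1a, -0.28 to 0.20 for Tas2r143 and -0.17 to 0.000269 for Egr2. The cause was not tested.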
